A study of Mus musculus with 9 samples.

Results

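Muscle of mice trained on a treadmill while drinking metformin was compared with muscle of sedentary mice, across every gene expressed in the left gastrocnemius, the large calf muscle. The members are 6 of the 9 RNA sequencing libraries of the series, chosen by their labels: 3 of AET_MET (aerobic exercise training and metformin) and 3 of SED (sedentary, with no drug named). Training sessions lasted 60 min, were given 5 times weekly and continued for 8 weeks. Metformin was dissolved in the drinking water at 2 mg/mL, renewed each week. The other 3 libraries, AET, came from mice trained in the same way with no drug named. They entered the statistical fit and serve below only to show where the trained mice on metformin differed from trained mice without it. The design text gives 8 to 9 mice per group, and the labels do not tie each library to a mouse of its own, so p-values reflect variation among these libraries that may be technical. The sources used here name no strain, sex or age. No sedentary mice on metformin were analysed here, so what the drug did and what training did cannot be told apart in this comparison. The 3 libraries of a group have names with a common stem, and any batch along those names likewise cannot be told apart from the groups.

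Gastrocnemius of the mouse is mostly fast-twitch fibers with a region that holds slow, oxidative ones. A working fiber burns fatty acids through mitochondrial beta oxidation and glucose through pyruvate dehydrogenase, whose entry step is opened by phosphatases and closed by kinases such as Pdk4. FOXO transcription factors and the glucocorticoid receptor switch on ubiquitin ligases and autophagy genes that break down muscle protein in fasting and disuse. The circadian clock, a loop of activators (Arntl, Clock) and repressors (Per, Cry and Nr1d genes), sets a daily rhythm on many of these pathways in muscle. Metformin is an oral glucose-lowering drug known to inhibit complex I of the respiratory chain.

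Of 55416 gene identifiers, 13944 had enough counts to be tested. Libraries held 15434424 (AET_MET replicate 1) to 25355877 (AET replicate 3) expected counts, which are RSEM's estimates of reads per gene. Levels are given as CPM, counts scaled by TMM to a common library size, and a difference as edgeR's log2 fold change ± SE. The SE was derived as the absolute log2 change divided by the square root of the quasi-likelihood F statistic. Calls required a Benjamini-Hochberg adjusted p under 0.05 over all tested genes. The 8 fiber genes among the markers, such as skeletal actin, creatine kinase and titin, summed to 244718 to 283820.3 CPM in SED and to 234121 to 273603 CPM in AET_MET.

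In AET_MET, 303 genes were higher (2.17% of those tested) and 337 lower (2.42%) than in SED, 640 in all (4.59%). Of these, 61 higher and 72 lower genes changed by at least 1 on the log2 scale, and 595 coded for protein. The libraries of the groups did not overlap for 1866 genes that lay higher (13.4%) and 1873 that lay lower (13.4%). For comparison, 812 genes were higher (5.82%) and 900 lower (6.45%) in AET against the same SED libraries, 1712 in all (12.3%). Between AET_MET and AET 231 genes were higher (1.66%) and 247 lower (1.77%), 478 in all (3.43%). Scaling by library size alone shifted the all-gene median by 0.101 on the log2 scale and gave 684 higher and 176 lower genes in AET_MET against SED. The direction of a small shift across a long list therefore depends on the scaling, and list medians below are read against an all-gene median of 0.00. The number of genes called in a list is read against the 2.17% higher and 2.42% lower of all tested genes.

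The number of calls rested on a few libraries. Without AET_MET replicate 3 the total of 640 became 141, without AET_MET replicate 1 it became 181, and without SED replicates 1, 2 or 3 it became 417, 253 or 329. It stayed at 655 without AET_MET replicate 2 and at 460 to 624 when any 1 AET library was left out. AET_MET replicate 2 lay nearest to the SED mean for 204 of the 303 higher genes and for 232 of the 337 lower ones, against 6072 of all 13944 genes. A core of 115 genes (0.825%), 44 higher and 71 lower, was called with all 9 libraries and again in each of the 9 fits that left out 1 library. Below, a gene called in every fit is one called in these fits. The phrase does not cover the other scalings, tools and filters or the slow-fiber covariate. Of the 134 called genes named below, 38, 64 and 60 lost the call without SED replicates 1, 2 and 3, then 18, 30 and 22 without AET replicates 1, 2 and 3, and 71, 19 and 81 without AET_MET replicates 1, 2 and 3. None of them changed its direction in these fits.

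**Figure D1:**
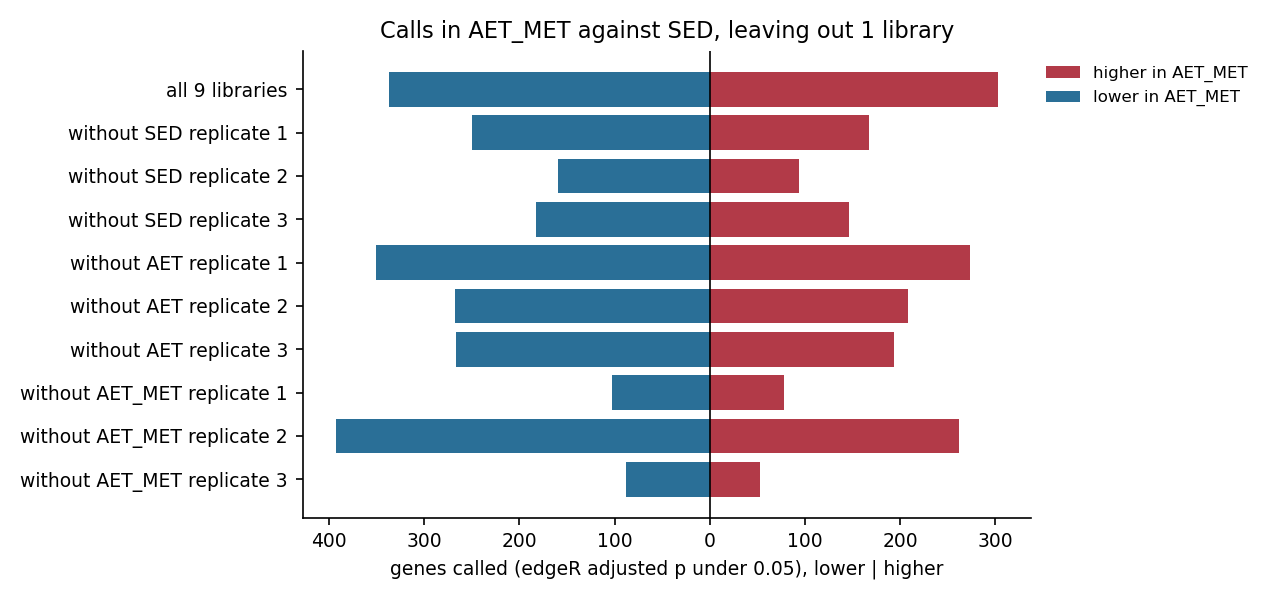
Number of genes called in AET_MET against SED (bars, linear axis; higher genes to the right of 0, lower genes to the left) with all 9 libraries and with each library left out in turn. The bars are shortest without AET_MET replicate 3 (53 higher, 88 lower) and AET_MET replicate 1 (78 higher, 103 lower).

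Slow-fiber genes differed between these libraries before any other result is read. Myh7, the slow myosin heavy chain, stood at 253, 323 and 279.5 CPM in SED replicates 1 to 3 and at 2.28, 265 and 99.2 CPM in AET_MET replicates 1 to 3. AET_MET replicate 1 held almost none and replicate 2 as much as a sedentary library, so the groups overlapped for this gene (log2 difference -1.22 ± 1.33, edgeR adjusted p = 0.669). The summed level of 6 slow-fiber markers ran from 551 to 678 CPM in SED, from 30.8 to 505 CPM in AET_MET and from 225 to 949 CPM in AET. All 10 slow-fiber genes had estimates below 0, with a median of -1.23, and none was called by edgeR, limma-voom or DESeq2 or had an unadjusted p under 0.05. For 7 of these 10 the AET_MET libraries lay below SED without overlap, against 13.4% of all tested genes. In whole muscle, fewer slow fibers in the piece taken and less RNA of these genes per fiber cannot be told apart. With the slow-fiber level of each library as a covariate, a fit chosen after seeing the data, 25 genes were called in AET_MET against SED (8 higher, 17 lower), and 1414 had an unadjusted p under 0.05, against 2879 without it. The covariate differs between the groups, so this fit also removes part of the group difference. Of the 134 called genes named in the text, 111 lost the call in this fit. Genes that kept their call in it included Tmem140 (-1.88 ± 0.15), Trim63 (-1.82 ± 0.20), Rarb (1.27 ± 0.16), Pdp1 (0.82 ± 0.11), Per3 (1.16 ± 0.20), Col1a2 (-1.18 ± 0.19), Gpat3 (-1.13 ± 0.19) and Fbxo32 (-0.83 ± 0.14), which are described below.

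Among the 115 genes called in every fit, 25 fell by at least 1 on the log2 scale, and a few fell steeply. Tmem140, a membrane protein gene on chromosome 6 (34863146 to 34874946, plus strand, GRCm38), held 169.8, 207 and 155 CPM in SED and 30.3, 49.5 and 34.5 CPM in AET_MET. All 3 AET_MET libraries lay far below all 3 SED libraries, a log2 change of -2.21 ± 0.19 (edgeR adjusted p = 0.00155). Arrdc3, an alpha-arrestin that acts on beta-adrenergic receptors (chromosome 13, 80883384 to 80896042, plus strand), fell from 161, 309.8 and 200.2 to 42.1, 55.2 and 55.3 CPM (-2.14 ± 0.25). Mettl21e, a muscle methyltransferase gene, fell from 4.87, 4.18 and 6.45 to 0.555, 1.48 and 0.359 CPM, with AET_MET replicate 2 the highest of its group (-2.66 ± 0.41). Sesn1, a sestrin that restrains mTORC1, fell from 57, 87.8 and 52.1 to 20.2, 23.4 and 18.9 CPM (-1.65 ± 0.19). Klhl38, a kelch-family gene, fell from 141, 161 and 147 to 36.8, 61.9 and 38.7 CPM (-1.70 ± 0.19). None of these groups overlapped. For genes named by the largest changes or lowest p-values the naming rule required this, so it is no separate result.

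Among the genes that fell, the lowest p-values belonged to smaller but tight falls. Bach1, the heme-sensing repressor of antioxidant genes, stood at 53.9, 63.9 and 58.5 CPM in SED and at 34.5, 36.1 and 33.8 CPM in AET_MET (-0.76 ± 0.08, edgeR adjusted p = 0.00134). Il6ra, the receptor subunit for interleukin-6, fell from 12.4, 14.1 and 14.9 to 6.17, 5.97 and 6.06 CPM (-1.18 ± 0.14). For both genes every AET_MET library lay below every sedentary one, which the naming rule required. Zfyve1, which codes for a phosphoinositide-binding protein of the endoplasmic reticulum and lipid droplets, fell by 0.80 on the log2 scale, and Irf2bp2, a transcriptional corepressor, by 0.89. Outside the naming rule, chosen after their values were seen, were Tacc2 (-0.92 ± 0.12), a gene of the microtubule and centrosome machinery, Clip1 (-0.95 ± 0.15), a microtubule end-binding protein, and Retreg1 (-1.03 ± 0.15), an autophagy receptor of the endoplasmic reticulum. All 3 were called in every fit.

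Rises that held in every fit included 3 core clock genes, described below, and the single genes given here. Rarb, retinoic acid receptor beta (chromosome 14, 16430839 to 16819156, minus strand), rose from 3.21, 3.48 and 3.91 CPM in SED to 9.37, 8.2 and 9.29 CPM in AET_MET. All 3 AET_MET libraries lay well above the sedentary ones, where the naming rule required no overlap (log2 change 1.34 ± 0.13, edgeR adjusted p = 0.000571). Mat2a, the enzyme that makes S-adenosylmethionine, rose from 61.7, 78.8 and 73.9 to 129, 130.2 and 151 CPM (0.94 ± 0.11). Pthlh, parathyroid hormone-related peptide, rose from 0.52, 0.705 and 0.684 to 3.76, 1.9 and 2.65 CPM (2.10 ± 0.28), at a level near the filter. Plcl1, a phospholipase C-like protein without catalytic activity, went from 7.04, 7.49 and 8.89 to 27.4, 18.9 and 21.1 CPM (1.52 ± 0.17). Sec14l5, of the SEC14 lipid-transfer family, went from 5.1, 3.57 and 3.18 to 10.7, 11.1 and 14.4 CPM (1.61 ± 0.18), and Rasgrp3, an exchange factor for Ras and Rap, rose by 1.03 ± 0.12. Azin1, which keeps ornithine decarboxylase and so polyamine synthesis active, rose from 28.1, 28.1 and 26.7 to 46.3, 35.8 and 49.2 CPM (0.66 ± 0.11). Calm2, 1 of the calmodulin genes, was called in every fit as well (1.05 ± 0.14), as was the growth-restraining Tob1 (0.93 ± 0.13). These last 2 were chosen after their values were seen.

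**Figure D2:**
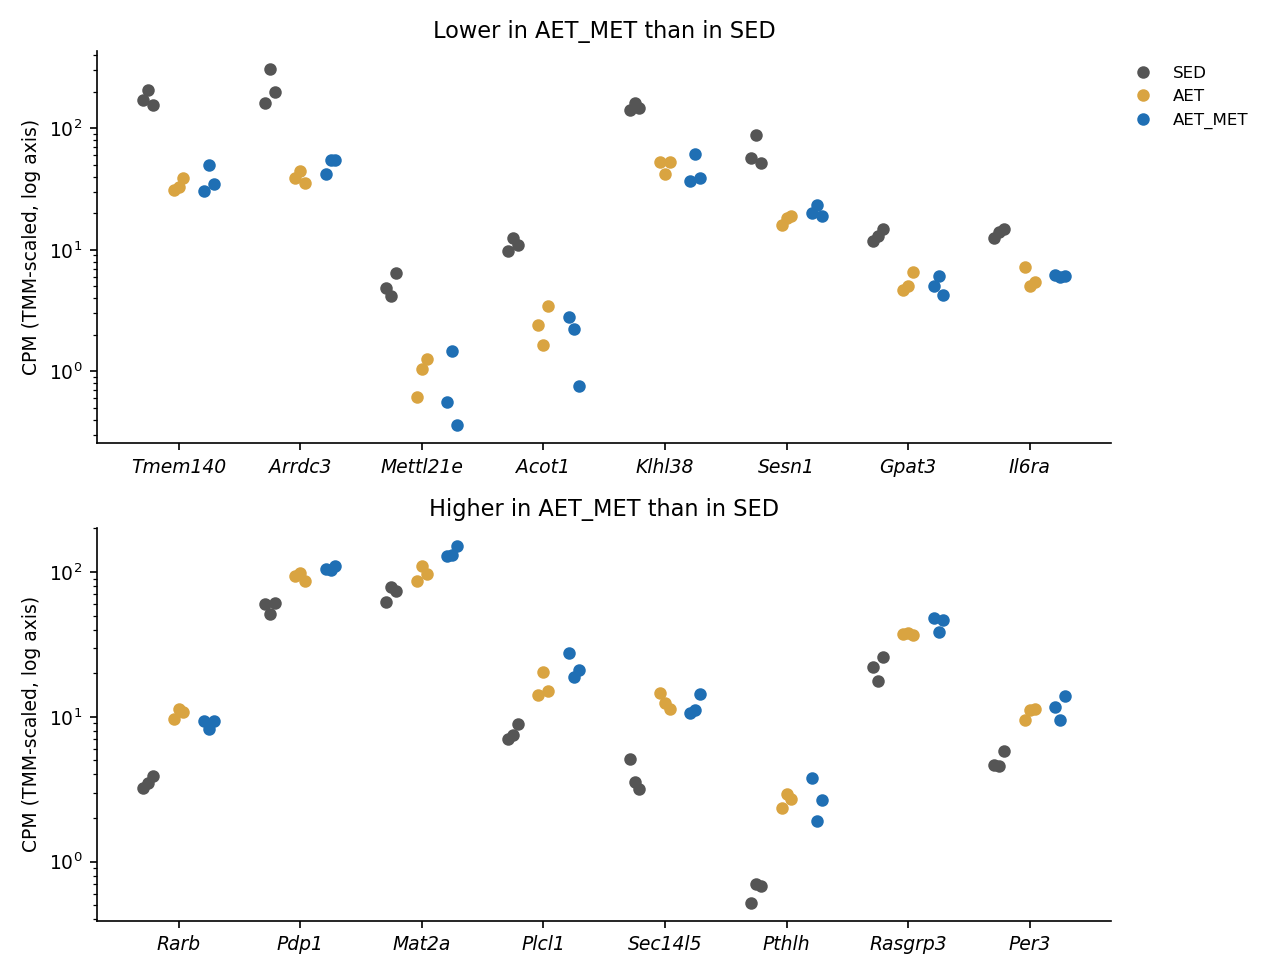
TMM-scaled CPM (log axis) of 8 lower and 8 higher genes called in every fit, 1 point per library: SED, AET_MET and, for reference, AET. For each gene the 3 AET_MET points lie outside the range of the 3 SED points, such as 30.3 to 49.5 CPM against 155 to 207 CPM for Tmem140. No overlap was a condition of naming for genes with the largest changes or lowest p-values.

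Genes of fatty acid burning were lower in part in AET_MET. Of 24 genes of the carnitine shuttle and beta oxidation, 10 fell and none rose, all 24 estimates lay below 0, and the median was -0.44. For 22 of the 24 the AET_MET libraries lay below SED without overlap, against 13.4% of all tested genes. Transport into the mitochondrion was represented by Slc25a20, the carnitine-acylcarnitine carrier, which fell from 63.1, 70.9 and 73.6 to 44.2, 50.3 and 44.5 CPM (-0.58 ± 0.11, edgeR adjusted p = 0.0159), and by Cpt2, which fell by 0.52 ± 0.11 on the log2 scale. Cpt1b, the muscle carnitine palmitoyltransferase that sets the rate of entry, lay at 289, 272 and 322 CPM in SED and 251, 238 and 222 CPM in AET_MET and was not called (-0.31 ± 0.11, edgeR adjusted p = 0.141). Among the dehydrogenases, Acadl fell from 155, 166 and 167 to 119, 116 and 89 CPM (-0.59 ± 0.13), and Hadh from 121, 116 and 141 to 93.2, 92.5 and 78 CPM (-0.52 ± 0.11). The electron transfer gene Etfdh fell by 0.51 ± 0.12 on the log2 scale. In AET against SED, 3 genes of the list fell, and the median was -0.22. Over the fits without 1 library, 0 to 15 genes of the list were called lower: 0 without SED replicate 3 or AET_MET replicate 3, 1 without SED replicate 2 or AET_MET replicate 1, and 6 to 15 in the others. With the slow-fiber covariate none was called and the median was -0.31. The mean log2(CPM + 1) of the list was 6.58, 6.65 and 6.74 in SED and 6.28, 6.34 and 6.09 in AET_MET replicates 1 to 3.

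Of 11 genes of thioesterases and uncoupling proteins 2 fell and none rose (median -0.41). Ucp3, an uncoupling protein of the inner mitochondrial membrane, stood at 308, 366 and 442 CPM in SED and at 187, 186 and 135 CPM in AET_MET (-1.14 ± 0.18, edgeR adjusted p = 0.012). Acot1, an acyl-CoA thioesterase, fell from 9.74, 12.6 and 10.9 to 2.78, 2.22 and 0.763 CPM (-2.57 ± 0.39). It has near-identical neighbours, between which read assignment is uncertain. Of 26 genes of lipid droplets and triglyceride turnover 4 fell and none rose (median -0.28). They were Gpat3, a glycerol-3-phosphate acyltransferase (11.9, 12.9 and 14.7 against 5.06, 6.11 and 4.26 CPM, -1.35 ± 0.16), the lipase gene Pnpla2 (-0.95 ± 0.17), Lpin1, a phosphatidate phosphatase (-0.46 ± 0.10), and Plin4, a lipid droplet coat protein (-1.02 ± 0.22). Of 17 genes of uptake and activation, 1 fell. It was Angptl4, a secreted inhibitor of lipoprotein lipase, at 36.9, 27 and 34.2 CPM in SED and 9.19, 11 and 5.43 CPM in AET_MET (-1.94 ± 0.29). Lpl itself lay at 386, 495 and 544 against 225, 315 and 237 CPM without overlap and was not called (-0.87 ± 0.21, edgeR adjusted p = 0.0524). Cd36, the fatty acid transporter, was not called either (-0.54 ± 0.16, edgeR adjusted p = 0.0976). Of the 12 called genes of fatty acid oxidation and lipid handling named so far, Ucp3, Acot1 and Gpat3 kept their call in every fit without 1 library, and the other 9 lost it in at least 1, most often without AET_MET replicate 1 (8), at largest adjusted p-values of 0.0597 to 0.137.

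Among 14 genes of pyruvate entry and its control, Pdp1 rose while Pdk4, Pdp2 and Pdhx fell. Pdp1, the phosphatase that activates pyruvate dehydrogenase (chromosome 4, 11958184 to 11966452, minus strand), rose from 60.2, 51.1 and 60.6 CPM in SED to 105, 103 and 109 CPM in AET_MET (0.88 ± 0.08, edgeR adjusted p = 0.000571). The lowest AET_MET library was far above the highest sedentary one. Pdk4, the kinase that inactivates the same complex, fell from 3469, 3231 and 3261 to 1657, 1695 and 1104 CPM (-1.16 ± 0.17, edgeR adjusted p = 0.00776). Both were called in every fit. Pdp2, another phosphatase that activates the complex, fell like the kinase (24.9, 32 and 32.5 against 11.5, 16.2 and 8.12 CPM, -1.32 ± 0.26), and so did Pdhx, a structural subunit (-0.32 ± 0.08). Of 22 insulin signalling and glucose uptake genes, Tbc1d1, a Rab GTPase-activating protein that holds back GLUT4, fell from 159, 167 and 186 to 100.2, 84 and 88.6 CPM (-0.91 ± 0.10). Slc2a4, coding for GLUT4, was not called (-0.22 ± 0.11, edgeR adjusted p = 0.271). In glycolysis and glycogen metabolism 1 of 31 genes was called. It was Eno1, an enolase, at 40.2, 39.2 and 40.9 against 30.7, 31.5 and 27.8 CPM (-0.42 ± 0.07). Tbc1d1 and Eno1 were called in every fit without 1 library, and Pdp2 and Pdhx lost the call without AET_MET replicate 1 or 3 or SED replicate 2 or 3, at adjusted p-values of up to 0.122. Pdp2 also lost it without AET replicate 1 or 2, and Pdhx without SED replicate 1. Eno1 lost the call with library sizes alone and with the slow-fiber covariate, and Pdk4 with that covariate.

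Single members of the mitochondrial lists were called, while most estimates lay slightly below 0. In the TCA cycle 1 of 24 genes fell, Dlst, a subunit of the 2-oxoglutarate dehydrogenase complex (176, 181 and 185 against 140.3, 137 and 119 CPM, -0.45 ± 0.09). The median of the list was -0.23. Branched-chain amino acid breakdown had 4 falls among 24 genes and a median of -0.24, with all estimates below 0. The 4 were Ivd (-0.51 ± 0.11), Bckdha, a subunit of the branched-chain ketoacid dehydrogenase (-0.49 ± 0.11), the transaminase gene Bcat2 (-0.43 ± 0.11) and the methylmalonyl-CoA mutase gene Mut (-0.32 ± 0.08). Among nuclear genes of complex I, the known target of metformin, 1 of 36 fell, Ndufa8 (61.2, 61.5 and 69.1 against 51.8, 51.7 and 49.6 CPM, -0.32 ± 0.08), 35 estimates lay below 0, and the median was -0.18. Complexes II to V had 1 fall among 42, Cycs (cytochrome c, -0.36 ± 0.09), with all 42 estimates below 0 and a median of -0.21. With library sizes alone as the scaling these medians were -0.08 and -0.10, against an all-gene median of 0.10. For both lists the single edgeR call was near the 2.42% of all tested genes called lower. The AET_MET libraries lay below SED without overlap for 20 of 24 TCA genes and 22 of 36 of complex I. They did so for 30 of 42 of complexes II to V, against 13.4% of all tested genes. An unadjusted edgeR p under 0.05 was found for 14, 16 and 16 genes of these 3 lists, and DESeq2 called 4 in each. The 13 genes of mitochondrial DNA held no call by edgeR, DESeq2 or limma-voom, 1 unadjusted p under 0.05 and a median of -0.01, and the 78 mitochondrial ribosome genes 1 fall, Mrpl16 (-0.36 ± 0.09). Of 26 regulators, the coactivator gene Ppargc1b rose from 4.25, 4.49 and 5.03 to 9.19, 6.62 and 6.28 CPM (0.67 ± 0.17), Rxrg rose (0.26 ± 0.07), and Ppara, the fatty acid-sensing receptor, fell from 9.07, 11.4 and 13.8 to 6.85, 8.24 and 5.12 CPM (-0.76 ± 0.19). Ppargc1a, the coactivator best known in endurance training, stood at 29.6, 27.7 and 37.9 against 46.5, 39.3 and 35.1 CPM and was not called (0.34 ± 0.13, edgeR adjusted p = 0.149). None of the 11 mitochondrial genes called in this paragraph kept its call in every fit, and all 11 lost it without AET_MET replicate 3 (largest adjusted p-values of 0.0894 to 0.174).

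**Figure D3:**
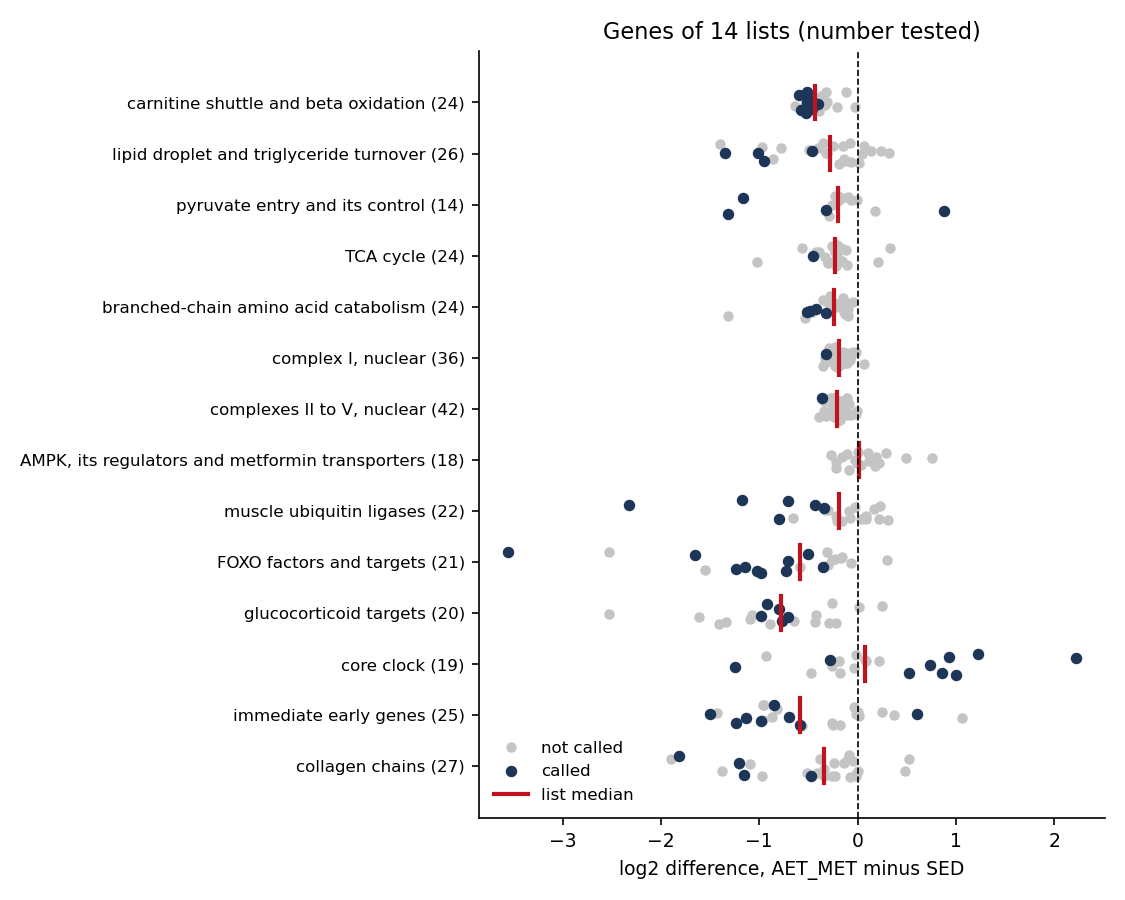
Log2 difference, AET_MET minus SED, of every tested gene in 14 lists (points, called genes dark), with the median of each list as a bar and the all-gene median of 0.00 as a dashed line. The beta oxidation, FOXO and glucocorticoid lists have medians of -0.44, -0.58 and -0.78, while the AMPK list centres on 0.02 with no dark point.

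**Figure D4:**
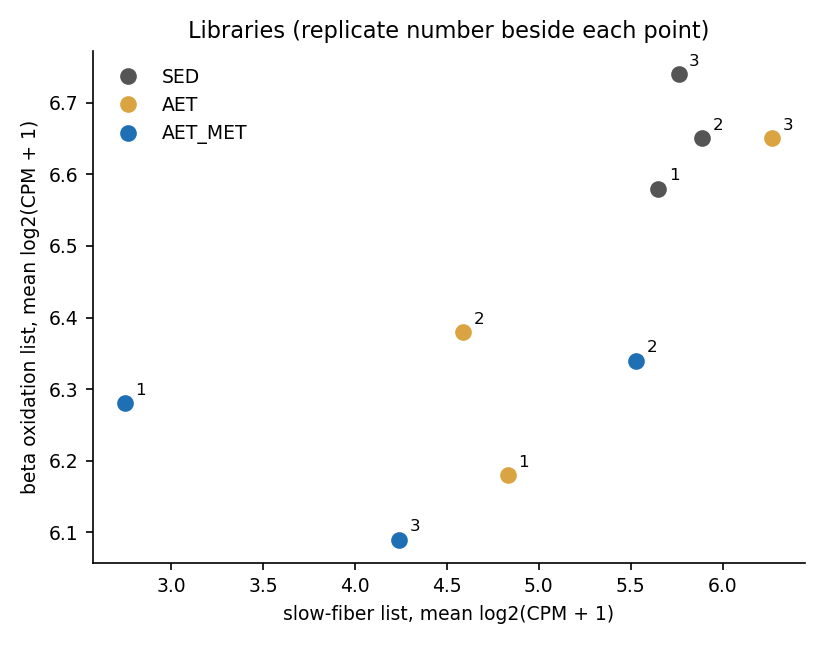
Mean log2(CPM + 1) of the carnitine shuttle and beta oxidation list (vertical) against that of the slow-fiber list (horizontal), 1 point per library, both on log2 scales. AET_MET replicate 1 lies at the far left, and all 3 AET_MET points lie below all 3 SED points on the vertical axis.

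Ubiquitin ligase genes of muscle fell in part. Of 22, 6 fell and none rose, 7 estimates lay above 0, and the median was -0.18. Trim63, coding for MuRF1, stood at 1306, 1326 and 1379 CPM in SED and at 171, 415 and 212 CPM in AET_MET (-2.33 ± 0.33, edgeR adjusted p = 0.0147). AET_MET replicate 2 was the highest of its group and still far below SED. Fbxo32, coding for atrogin-1, fell from 1828, 1843 and 1817 to 633, 1007 and 791 CPM (-1.17 ± 0.18). Cblb, a ligase acting on receptor signalling, fell from 47.3, 43.8 and 39.3 to 27.9, 29.6 and 22.6 CPM (-0.70 ± 0.12), and Asb2, Fbxo31 and Fbxo40 fell by 0.80 ± 0.15, 0.44 ± 0.08 and 0.35 ± 0.08. None of the 31 proteasome subunit genes was called, although all estimates lay at or below 0 (median -0.11). With library sizes alone it was -0.01, where the median of all genes was 0.10. In that list 9 genes had an unadjusted p under 0.05, and DESeq2 called 1. In autophagy, 5 of 30 genes fell and none rose. They were Ctsl, a lysosomal protease (72.1, 93.3 and 84.2 against 45, 53.7 and 52.1 CPM, -0.73 ± 0.10), Gabarapl1 (81.7, 106 and 106 against 39.4, 54.3 and 38.9 CPM, -1.15 ± 0.16), Ulk1, the kinase that starts autophagy (-0.64 ± 0.11), Map1lc3b (-0.41 ± 0.08) and the mitophagy receptor gene Bnip3 (-0.35 ± 0.09). Cblb, Ctsl, Gabarapl1 and Ulk1 were called in every fit, and the other 7 genes lost the call without AET_MET replicate 3 (largest adjusted p-values of 0.0607 to 0.168). In AET against SED, 9 ligase genes fell and 1 rose (median -0.28), and 11 autophagy and 9 proteasome genes fell. Trim63 and Fbxo32 changed there by -2.93 ± 0.34 and -1.61 ± 0.18. Of the ligases 3 were called higher in AET_MET than in AET, without Trim63 and Fbxo32 (edgeR adjusted p = 0.329 and 0.189).

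FOXO and glucocorticoid targets fell in part. Of 21 FOXO factors and targets 10 fell and none rose (median -0.58), and of 20 glucocorticoid targets 5 fell and none rose (median -0.78). The lists share genes, Foxo3 and Klf15 among those called, so they are not independent. Of the FOXO calls, Ctsl, Gabarapl1 and Bnip3 are also calls of the autophagy list above, and Gadd45a recurs below. Foxo3, a transcription factor of the family, fell from 64.7, 69.2 and 59.5 to 36.9, 45.4 and 36.3 CPM (-0.71 ± 0.10, edgeR adjusted p = 0.00297). Depp1, a FOXO target, fell from 117, 111 and 69.1 to 4.26, 14.9 and 5.7 CPM (-3.56 ± 0.49), the largest fall that the naming rule found. Klf15, a regulator of amino acid and lipid use, fell from 41.7, 49.6 and 59.5 to 22, 30.5 and 23.7 CPM (-0.98 ± 0.14). Klf9, a factor induced by glucocorticoids, fell from 306, 342 and 333 to 171, 215 and 191 CPM (-0.76 ± 0.09). Cebpb fell from 23.4, 32.9 and 28 to 15, 13.9 and 15.7 CPM (-0.92 ± 0.15), and Tsc22d3, coding for the glucocorticoid-induced leucine zipper, from 319, 418 and 326 to 179, 222 and 208 CPM (-0.80 ± 0.14). Eif4ebp1, which holds back translation initiation, fell from 44, 53.8 and 45.5 to 33.8, 33.6 and 33.8 CPM (-0.50 ± 0.09). In AET against SED 13 of the FOXO genes and 14 of the glucocorticoid targets fell, with medians of -0.82 and -1.32. Among the glucocorticoid targets 2 were higher in AET_MET than in AET, and among the FOXO genes 1 was. Of the 7 genes given with values here, Depp1 and Tsc22d3 lost the call without AET_MET replicate 1 or 3, and Depp1 without SED replicate 2, at adjusted p-values of up to 0.0802. With the slow-fiber covariate 6 of these 7 lost the call. In that fit 1 gene of each list was called lower, and both medians were -0.62.

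Clock genes changed in both directions. Of 19 core clock genes 7 rose and 2 fell in AET_MET. Among the repressors, Per3 rose from 4.63, 4.54 and 5.76 CPM in SED to 11.6, 9.49 and 13.9 CPM (1.23 ± 0.15, edgeR adjusted p = 0.00184) and Nr1d2, coding for REV-ERB beta, from 59.9, 63.9 and 68.2 to 111, 92.1 and 116 CPM (0.73 ± 0.09). Bhlhe41, a helix-loop-helix repressor, rose from 20.8, 15.7 and 20.6 to 41.9, 29.1 and 37.9 CPM (0.93 ± 0.15). AET_MET replicate 2 was the lowest of its group for each of these 3 genes and still above every sedentary library. Further rises were in Nr1d1 (0.52 ± 0.10), Bhlhe40 (1.00 ± 0.18), the repressor gene Ciart (2.22 ± 0.49) and, outside the naming rule, Per2 (0.85 ± 0.21). The activator Arntl, coding for BMAL1, fell from 51.9, 44 and 53 to 15.5, 30.6 and 16.2 CPM (-1.25 ± 0.25, edgeR adjusted p = 0.0344). Output genes moved in both directions, 3 of 18 higher and 2 lower. Of these calls, Myod1, Nampt and Tsc22d3 are also described in other paragraphs. Dbp, a PAR-domain transcription factor gene, rose from 7.42, 4.76 and 8.06 to 37.3, 14.5 and 38.8 CPM (2.16 ± 0.40), and Nfil3, a repressor of the same DNA element, fell from 46.6, 45.1 and 40.8 to 6.41, 17.2 and 8.93 CPM (-2.01 ± 0.31). Per3, Nr1d2 and Bhlhe41 were called in every fit, while the other 7 clock genes given with values lost the call without SED replicate 2 or other single libraries (largest adjusted p-values of 0.0759 to 0.173). No hour of collection is named in the sources used here, and whether it differed between groups was not tested.

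**Figure D5:**
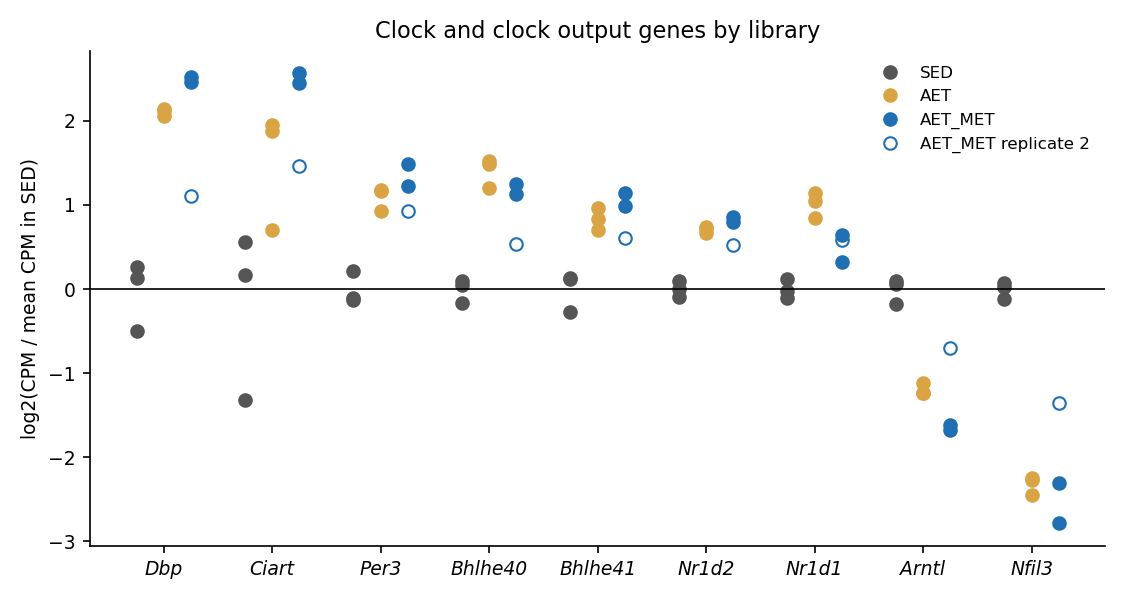
Log2 ratio of CPM in each library to the SED mean for 9 clock and clock output genes (horizontal; 1 point per SED, AET and AET_MET library). Dbp and Ciart lie highest and Nfil3 lowest, and AET_MET replicate 2 (open symbol) is nearer 0 than the other AET_MET libraries for most genes.

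Promoters are shown for the 3 clock genes with the lowest p and for Ucp3, because clock and nuclear receptor elements are defined short sequences. Sequences run from 250 bases before to 50 bases after each start site, 5′ to 3′ in the direction of the gene, from RefSeq on GRCm38.p6, with motif matches in capitals. The motifs searched on both strands were the E-box CACGTG, the D-box TTANGTAA, the FOXO element TGTTTAC, the nuclear receptor sites AGGTCA and TCAAGGTCA (the longer contains the shorter) and the glucocorticoid receptor AGAACA element. They were found in 7.15%, 2.32%, 3.65%, 16.3%, 0.423% and 19% of all 32851 promoters of that length, in this order. The windows lie at chr4:151044616-151044915 (Per3, minus strand, with D-boxes starting at -205 and -158 from the start site), chr6:145865371-145865670 (Bhlhe41, minus strand, an E-box at -153), chr14:18239057-18239356 (Nr1d2, minus strand, AGGTCA at -77) and chr7:100472741-100473040 (Ucp3, plus strand, AGGTCA at -149 and -44).
Per3: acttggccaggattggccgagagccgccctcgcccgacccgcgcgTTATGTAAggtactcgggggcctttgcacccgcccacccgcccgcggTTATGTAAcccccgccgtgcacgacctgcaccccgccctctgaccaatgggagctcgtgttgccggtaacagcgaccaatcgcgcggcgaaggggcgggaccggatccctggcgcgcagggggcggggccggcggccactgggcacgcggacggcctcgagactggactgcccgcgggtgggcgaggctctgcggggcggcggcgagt
Bhlhe41: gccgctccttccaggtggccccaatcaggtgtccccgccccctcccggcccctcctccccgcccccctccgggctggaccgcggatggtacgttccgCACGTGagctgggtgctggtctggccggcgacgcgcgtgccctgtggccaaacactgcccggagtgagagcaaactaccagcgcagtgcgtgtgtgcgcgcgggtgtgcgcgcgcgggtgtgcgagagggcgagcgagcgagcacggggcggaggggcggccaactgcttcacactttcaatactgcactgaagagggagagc
Nr1d2: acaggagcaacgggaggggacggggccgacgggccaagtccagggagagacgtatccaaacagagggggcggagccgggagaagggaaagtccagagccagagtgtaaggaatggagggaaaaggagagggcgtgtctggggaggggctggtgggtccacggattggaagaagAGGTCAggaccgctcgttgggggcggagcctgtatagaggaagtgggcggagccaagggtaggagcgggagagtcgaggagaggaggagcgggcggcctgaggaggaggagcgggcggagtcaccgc
Ucp3: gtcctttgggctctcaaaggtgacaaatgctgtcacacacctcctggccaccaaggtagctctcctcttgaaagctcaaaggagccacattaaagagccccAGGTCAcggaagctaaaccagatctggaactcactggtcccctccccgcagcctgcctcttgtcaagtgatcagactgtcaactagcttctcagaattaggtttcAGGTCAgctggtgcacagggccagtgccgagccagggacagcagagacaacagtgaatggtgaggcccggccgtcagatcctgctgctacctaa
The Per3 promoter holds 2 copies of the D-box that Dbp activates and Nfil3 represses, a motif in 2.32% of promoters. Acot1 had only an AGAACA match at -171, and Gpat3 none of these letters in its window. The D-box stood in 1.64% of 305 promoters of genes that were higher and in 1.16% of 345 promoters of genes that were lower, against 1.48% of 13013 promoters of tested genes. The FOXO element stood in 3.93% and 4.93%, against 2.65%. For CACGTG the shares were 7.21% and 9.28%, against 9.81%, for AGGTCA 12.1% and 10.1%, against 12.4%, and for AGAACA 12.8% and 14.5%, against 12.6%. A match describes letters and says nothing of binding.

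Immediate early genes, which respond quickly to contraction and growth signals, were lower in part. Of 25 tested, 7 fell and 1 rose (median -0.58). Klf10 fell from 72.5, 57.3 and 59.6 to 27.8, 32.5 and 25.9 CPM (-1.14 ± 0.14, edgeR adjusted p = 0.0025), Maff from 3.54, 5.24 and 4.69 to 1.23, 2.18 and 1.3 CPM (-1.50 ± 0.24), and Jun from 98.2, 119 and 105 to 67.2, 79.97 and 67.8 CPM (-0.58 ± 0.10). Junb (-0.85 ± 0.17), Ccn1 (-0.99 ± 0.18) and Fos (-1.24 ± 0.28) fell too, and no AET_MET library reached the sedentary range for any of these 6 called genes. In the whole list 11 of 25 genes lay lower without overlap and 1 higher, against 13.4% each way of all tested genes. The remaining calls, outside the naming rule, were a fall of Myc and a rise of Nr4a1. In the integrated stress response 1 of 21 genes fell, Ppp1r15a, which restores translation after stress (47.1, 55.1 and 46.4 against 18.7, 30.7 and 22.3 CPM, -1.05 ± 0.16). The unfolded protein response had 3 rises among 22 genes and no fall, with a median of 0.10. These were the chaperone gene Hyou1 (20.9, 19.6 and 20.6 against 28.9, 24.2 and 28.5 CPM, 0.42 ± 0.09), the transcription factor gene Xbp1 (37.8, 44.8 and 36.2 against 55.5, 47.3 and 58 CPM, 0.44 ± 0.11) and Manf (0.59 ± 0.15). Heat shock genes gave 1 rise, Hspb8 (0.39 ± 0.09), and 3 falls among 27: Hspb6 (226, 284 and 311 against 191, 198 and 188 CPM, -0.51 ± 0.11), the mitochondrial chaperone gene Hspa9 (-0.34 ± 0.09) and Dnajb4 (-0.34 ± 0.09). Of 30 antioxidant genes 4 fell and none rose. Nfe2l2, coding for NRF2, fell from 46.2, 56.2 and 42.1 to 33.2, 33.1 and 32.8 CPM (-0.55 ± 0.10), catalase (Cat) from 118, 145 and 134 to 95.5, 84.7 and 76.1 CPM (-0.63 ± 0.12), and Hmox1 and Gclm by 1.22 ± 0.26 and 0.48 ± 0.12. Of the 18 stress genes named with values, Klf10 and Maff were called in every fit and 16 lost the call without AET_MET replicate 3 (largest adjusted p-values of 0.0592 to 0.184).

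Genes of the extracellular matrix fell in part. Of 27 collagen chains 4 fell and none rose, with a median of -0.34. Col1a2 fell from 165, 246 and 245 to 94.3, 101 and 88.7 CPM (-1.21 ± 0.13, edgeR adjusted p = 0.00155), and Col1a1, its partner in type I collagen, from 69.3, 145 and 110.3 to 33.6, 30.3 and 28.5 CPM (-1.82 ± 0.25). Col16a1 (-1.15 ± 0.21) and Col6a1 (-0.47 ± 0.11) were the others. Of 35 genes of collagen processing and matrix glycoproteins 3 fell: Sparc, a collagen-binding glycoprotein (134, 182 and 157 against 101, 106 and 92.5 CPM, -0.66 ± 0.10), Nid1 (-0.39 ± 0.07) and the crosslinking enzyme gene Lox (40.7, 49.4 and 51.4 against 15.8, 25.3 and 16.2 CPM, -1.30 ± 0.20). Among 20 proteases and inhibitors, Timp4 (0.49 ± 0.10) and Mmp15 (0.49 ± 0.13) rose, and Plau (-0.38 ± 0.09), Mmp2 (-0.68 ± 0.15) and Serpinf1 (-0.67 ± 0.16) fell. Col1a2 and Sparc were called in every fit, and 9 of the other 10 matrix genes lost the call without AET_MET replicate 3 (largest adjusted p-values of 0.0606 to 0.184). Marker genes of tendon cells moved with this group. All 8 had estimates below 0 with a median of -1.15. None was called by edgeR, 4 had an unadjusted p under 0.05, and DESeq2 called 2 and limma-voom 1. Their summed level was 322 to 542 CPM in SED, 93.7 to 225 CPM in AET_MET and 139.5 to 321 CPM in AET. Scx, a defining tendon factor, was at 2.5, 2.2 and 2.1 against 1.48, 1.25 and 1.44 CPM. Fibroblast markers summed to 1490.5 to 2042 CPM in SED and 1399.8 to 1605 CPM in AET_MET, with none of 9 called by edgeR, 2 at an unadjusted p under 0.05 and 1 called by DESeq2. The part of tendon or connective tissue cells in the matrix result was not tested.

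Genes of the contractile lattice, the synapse and growth control gave scattered calls. Ky, a gene needed for muscle maintenance, rose from 44.9, 22.9 and 26.3 to 151, 85.8 and 156 CPM (2.06 ± 0.34, edgeR adjusted p = 0.0236). Ankrd23, a stretch-responsive titin-binding protein, fell from 1704, 1697 and 1448 to 971, 1099.5 and 849 CPM (-0.73 ± 0.10), Xirp1 fell (-0.65 ± 0.13) and Synpo2l rose (0.44 ± 0.10), so that 2 of 26 Z-disc and stretch genes rose and 2 fell. At the neuromuscular junction, 3 of 20 rose, Rapsn, which clusters acetylcholine receptors (9.22, 9.69 and 9.43 against 14.4, 12.7 and 15 CPM, 0.57 ± 0.11), Hdac9 (0.87 ± 0.20) and Agrn (0.55 ± 0.14), and Gadd45a fell (-1.03 ± 0.22). In the myostatin, TGF-beta and BMP list of 32, the activin receptor gene Acvr1b fell from 66.3, 71.7 and 70.5 to 41, 48.5 and 49.5 CPM (-0.58 ± 0.10), while Acvr2b (0.53 ± 0.13), Bmpr1a (0.40 ± 0.08) and Tgfb2 (0.54 ± 0.13) rose. Mstn, coding for myostatin, lay at 85.9, 63.8 and 93 against 107, 93.6 and 107 CPM and was not called (0.34 ± 0.12, edgeR adjusted p = 0.138). Myod1, a myogenic factor, rose from 5.25, 6.17 and 4.4 to 7.46, 8.8 and 8.39 CPM (0.64 ± 0.14). The channel genes Clcn1, the muscle chloride channel (0.36 ± 0.08), and Kcnc1 (0.32 ± 0.08) rose among 21. Slc43a1, an amino acid transporter, fell from 53.6, 52.4 and 52.6 to 12.2, 26.7 and 16.3 CPM (-1.51 ± 0.24), Slc43a2 fell (-0.68 ± 0.15), and the creatine transporter gene Slc6a8 rose (0.38 ± 0.08). Nampt, the rate-limiting enzyme of NAD salvage, rose from 140.4, 133 and 152 to 185, 170.4 and 176 CPM (0.32 ± 0.08), while Nmrk2, a nicotinamide riboside kinase, lay at 11.8, 9.51 and 8.7 against 32.2, 15.3 and 21.3 CPM without a call (1.19 ± 0.26, edgeR adjusted p = 0.0514). Ankrd23 and Acvr1b were called in every fit, and 16 of the other 17 called genes of this paragraph lost the call without AET_MET replicate 3 (largest adjusted p-values of 0.0626 to 0.164).

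Several lists held no call. None of 18 tested genes of AMPK, its regulators and the metformin transporters passed (median 0.02, estimates from -0.27 to 0.76), the lowest p belonging to Acacb, a substrate of AMPK (400.4, 434 and 388 against 345, 339.6 and 331 CPM, -0.27 ± 0.09, edgeR adjusted p = 0.122). No call was made among 27 genes of vessel growth and hypoxia. There Vegfa stood at 52.1, 48.5 and 69.9 against 73.8, 68.2 and 58.2 CPM (0.23 ± 0.15, edgeR adjusted p = 0.424). Calcium handling (30 genes), the fast-fiber genes (15), the interferon response (25) and the cytosolic ribosome (82) had none either, with medians of 0.02, -0.03, 0.12 and -0.06. At an unadjusted edgeR p under 0.05 there were 4 genes in the AMPK list, 9 in the vessel list, 7, 1, 3 and 5 in the others in that order. DESeq2 called 1 gene lower in the AMPK list, 2 in the vessel list, 1 in the ribosome list and none in the others, and limma-voom called 1 in the vessel list.

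Markers of other cell types gave few calls. Endothelial, smooth muscle, Schwann cell, macrophage and adipocyte lists had medians of -0.15, 0.08, 0.05, -0.05 and 0.52. In these 5 lists edgeR called 1 gene, Cldn5 of the endothelial tight junction (11.1, 11 and 11.6 against 6.85, 7.55 and 5.39 CPM, -0.77 ± 0.13, edgeR adjusted p = 0.00796), and DESeq2 called 1 gene each in the endothelial and smooth muscle lists. The adipocyte list had 7 of 8 estimates above 0, and for each of its 8 genes the SED and AET_MET libraries overlapped. The neutrophil and mast cell list had 3 tested genes, the mast cell proteases Mcpt4, Cpa3 and Cma1, with a median of 0.61. Their AET_MET libraries lay above SED without overlap, at a summed level of 5.67 to 6.67 CPM against 3.26 to 4.06 CPM, and edgeR called none, with 2 at an unadjusted p under 0.05 and 1 called by DESeq2. Of all tested genes 13.4% lay higher without overlap. All 5 red blood cell genes had estimates below 0 (median -0.58), at a summed level of 143 to 210 CPM against 193 to 365 CPM. There edgeR called none, 2 had an unadjusted p under 0.05 and DESeq2 called 1. Among satellite cell markers Sdc4, which fibers and other cells also express, fell from 43.3, 46.3 and 48.6 to 25.1, 35.3 and 23.3 CPM (-0.72 ± 0.13). No lymphocyte marker had enough counts to be tested. The counts of Cd3d were 0 in 8 of the 9 libraries.

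Trained mice on metformin were also set directly against trained mice without it. Both comparisons use the same AET_MET libraries, so they are not independent. The genes below changed against SED and differed from AET, and 3 were called in opposite directions against SED in the 2 trained groups. Xbp1 was higher in AET_MET (55.5, 47.3 and 58 CPM) than in SED (37.8, 44.8 and 36.2 CPM) and lower in AET (27.3, 32.4 and 27.2 CPM), a log2 difference of AET_MET minus AET of 0.89 (edgeR adjusted p = 0.00314). Ndufa8 was lower in AET_MET and higher in AET (77.5, 71 and 86.6 CPM) than in SED, a difference of -0.62 (edgeR adjusted p = 0.00675). Tceal5, a transcription elongation factor-like gene, was at 2.9, 2.45 and 3.05 CPM in AET_MET, at 5.72, 4.05 and 4.64 CPM in SED and at 9.45, 6.48 and 8.23 CPM in AET (-1.52). Slc30a4, a zinc transporter, rose in AET_MET (41, 37.9 and 43.4 against 30.2, 27.8 and 30.2 CPM in SED) and not in AET (28.4, 27.3 and 27.8 CPM), a difference of 0.55. Eno1 was lower in AET_MET than in both other groups, with 44.4, 46.8 and 43.8 CPM in AET (-0.59, edgeR adjusted p = 0.00364), and so were Ankrd23 (-0.65), Dlst (-0.42), Cycs (-0.40), Hspb6 (-0.56), Col6a1 (-0.57), Col1a2 (-0.59) and Sparc (-0.42). Of the 27 collagen chains 6 were lower in AET_MET than in AET and none higher (median -0.53). Eif4ebp1 had fallen further in AET (18.4, 17.3 and 19.6 CPM) than in AET_MET (0.87, edgeR adjusted p = 0.00172), as had Lpin1 (0.48), Cebpb (0.63), Acvr1b (0.50) and the linker histone gene Hist1h1c (0.58). Mat2a had risen further in AET_MET (0.49), and Nr1d1 further in AET (-0.50). Myod1 (0.61) and Timp4 (0.46) were higher in AET_MET than in AET. Of genes not called against SED, Mstn was higher (0.67), and Nmrk2 was lower in AET_MET than in AET (87.6, 80.7 and 95.9 CPM, -1.95, edgeR adjusted p = 0.0162). Without AET_MET replicate 3 the 478 calls between these groups became 23, and without AET replicate 3 they became 34.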

How the data were processed

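The deposited table gives RSEM expected counts per gene for each of the 9 mRNA sequencing libraries. The submitters' processing notes name GRCm38 as the build and, without roles, edgeR 3.34.0, RSEM 1.3.0 and STAR 2.5.3a. Annotation release, filters and strand setting are not stated in the sources used here, so antisense reads may count for the gene opposite, and near-identical copies are uncertain.

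Counts were rounded and tested with edgeR 4.0.16 in R 4.3.3 (TMM scaling, filterByExpr, robust quasi-likelihood test, 3 group means over all 9 libraries, 6 residual degrees of freedom). The same pipeline was tested on simulated data. Depth was 15434424 to 25355877 expected counts per library, and 4.85% to 5.53% of values were not whole. GENCODE M21 gave a symbol to 52135 identifiers, and 61 tested genes had none. Libraries of a group differed beyond sampling noise (lowest chi-square per degree of freedom 14.7), and none was merged.

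Alternatives were RLE and upper-quartile scaling, library sizes alone, DESeq2 1.42.0, limma-voom (limma 3.58.1), no filter, at least 5 CPM in 3 libraries, the 2 groups alone, no robust step, a replicate block, each library left out, and, added after seeing the data, a slow-fiber covariate. Named genes were called, reached 1 CPM in SED or AET_MET, did not overlap and had an informative symbol: the 12 largest changes and 8 smallest p-values per direction, up to 6 called members per list, the 8 smallest p-values among those also different from AET, genes called in opposite directions in AET, the 10 largest changes called in every fit, and a panel of 24. For list and panel members only the call, or a place in the panel or among the 2 lowest p-values of a list without calls, was required. Some are left out for length, and a few results are not reported here. The members, lists and rule were chosen with earlier results of these data known.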

Additional observations from a re-analysis of the deposited data

Results flagged for a closer look

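The results below stand out because trained mice with and without metformin differed in the direct edgeR test of AET_MET against AET (adjusted p under 0.05), so their responses against SED differed. Values are log2 differences, AET_MET minus AET. Higher with metformin were Xbp1 (0.89), Eif4ebp1 (0.87), Mstn (0.67), Cebpb (0.63), Myod1 (0.61), Hist1h1c (0.58), Slc30a4 (0.55), Acvr1b (0.50), Mat2a (0.49), Lpin1 (0.48) and Timp4 (0.46). Lower with metformin were Nmrk2 (-1.95), Tceal5 (-1.52), Ankrd23 (-0.65), Ndufa8 (-0.62), Col1a2 (-0.59), Eno1 (-0.59), Col6a1 (-0.57), Hspb6 (-0.56), Nr1d1 (-0.50), Dlst (-0.42), Sparc (-0.42) and Cycs (-0.40). Values of other cell types stand beside them: summed slow-fiber markers ran from 225 to 949 CPM in AET and from 30.8 to 505 CPM in AET_MET, the summed Schwann markers were at least 122 CPM in every AET library and 51.8 to 110.1 CPM in AET_MET, and the part of the Schwann markers in these differences was not tested. With the slow-fiber covariate, 22 genes were called between AET_MET and AET.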

How the results depend on the processing

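Calls depended most on single libraries and on the slow-fiber covariate. Over the fits that left out 1 library, AET_MET against SED gave 141 to 655 calls in all, 53 to 273 higher and 88 to 393 lower, and AET_MET against AET gave 23 to 461. Library sizes alone gave 684 higher and 176 lower genes in AET_MET against SED and 767 calls against AET, with an all-gene median moved by 0.101 and 0.089. DESeq2 called 551 genes lower against SED and 876 genes against AET, and testing without a filter on low counts called 731 against AET. The slow-fiber covariate, chosen after seeing the data, gave 25 calls (8 higher, 17 lower) against SED and 22 against AET, and turned Myh7 to 0.69. Since the covariate is the mean level of slow-fiber genes, the change of Myh7 follows from the fit and is no separate result. All other totals stayed within 1.5 times of those reported.

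Deviations of same-numbered SED and AET_MET libraries correlated at 0.184, -0.0145 and 0.0439, and those of differently numbered ones at -0.172 to 0.14. With 3 libraries per group, deviations from the group mean are too few to decide whether replicate numbers pair the libraries. With the replicate block, 535 genes were called against SED (241 higher, 294 lower) and 358 against AET, and 23 of the 134 called genes named lost their call.

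Of those 134 genes, 111 lost the call with the slow-fiber covariate, more than in any other setting. Counting only genes still given an adjusted p, 32 lost the call with library sizes alone, 25 with the 2 groups alone, 21 with limma-voom, 14 with no filter, 11 without the robust step, 8 with upper-quartile scaling, 1 with RLE scaling, 1 with DESeq2 and 0 with at least 5 CPM in 3 libraries. None changed direction in any of these settings. With 3 libraries per group and 15434424 counts in the shallowest, genes near the filter, such as Pthlh and Mettl21e, rest on few reads.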
